A study of Mus musculus with 4 samples.

Results

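The genes described are 10 transcripts of platelets and red cells, chosen by name as Ppbp, Pf4, Itga2b, Gp9, Car1, Car2, Alas2, Hbb-bs, Hbb-bt and Hba-a1. Of these 10 members, 7 were among the 26207 genes of the table, and the globin genes Hbb-bs, Hbb-bt and Hba-a1 are not analysed here. Bulk RNA was sequenced in 4 libraries from mouse Th2 cells (T helper 2), a CD4 T cell lineage that makes type 2 cytokines, with spleen as the labelled tissue. The 2 dopamine libraries came from Th2 cells given 10 µM dopamine, a catecholamine transmitter, and the 2 reference libraries from Th2 cells given phosphate-buffered saline (PBS). The comparison asks which transcripts differ in Th2 cells exposed to dopamine. Strain, genotype, sex, age, the way the Th2 cells were made, the length of the treatment and any pooling of animals are not given in the labels, nor is it said that the replicates were different mice or cultures. Each p-value below therefore speaks of the variation among 4 libraries, and that variation may be technical.

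Platelets are shed by megakaryocytes and carry transcripts for granule chemokines and for the receptors that bind fibrinogen and von Willebrand factor. Red cells arise from erythroid precursors, which share their progenitor and the transcription factor GATA1 with megakaryocytes and make hemoglobin, heme and carbonic anhydrase. Neither program is part of the known identity of helper T cells, and the mouse spleen is a site of blood formation in the adult. Several of them are also known outside mature platelets and red cells: Itga2b marks early blood progenitors, and Car2 is made in many tissues.

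Transcripts of the platelet and red cell genes were lower with dopamine. Of the 7 members measured, 6 fell and 0 rose at an adjusted p of 0.05, against 7.00% of all 26207 genes called lower and 14.3% called higher by the same test (limma on log2 of the normalized count plus 1, adjusted over all genes). The 4 platelet genes fell by 1.38 to 2.85 on the log2 scale, Car1 fell by 2.51 and Car2 fell by 0.58, while Alas2 was not called. In all 7 members both dopamine libraries lay below both PBS libraries, which was also so for 30.4% of all genes. The median log2 fold change was -1.46 over the 7 members and -0.08 over all genes. In bulk RNA, fewer cells of a type and less RNA per cell cannot be told apart.

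Depth was 14167357 and 11492182 reads assigned to genes in dopamine A and dopamine B, against 5717408 and 13241168 in PBS A and PBS B (A and B only name the libraries). Values are the authors' normalized counts. A read was worth 0.771 and 0.971 normalized counts in dopamine A and B, against 1.70 and 0.766 in PBS A and B. Helper T cell markers were abundant in both groups: Cd4 averaged 4668 ± 115 with dopamine and 4253 ± 24.3 with PBS (SD, n = 2 each). Over all genes 1834 were called lower and 3743 higher, and the split turned to 3178 lower and 1806 higher when library scaling was set by abundant genes (mean of 100 or more), which moved the median log2 fold change of those abundant genes from 0.20 to 0.0026. The 6 calls among the members held under that rescaling. DESeq2 called 5 members lower, all but Car2 and Alas2, against 5.53% of the genes it tested.

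The stretches upstream of the 4 platelet genes are shown because these members were all called lower. They are the 250 bases before each RefSeq start site on GRCm38.p6, which is the mm10 build named by the submitters, and 5 of the 7 members had an entry (Alas2 is not shown). Capitals mark the ETS core GGAAG on either strand. For Itga2b the GENCODE start lies further out than the RefSeq one, so 239 of its 250 bases fall within the gene as GENCODE M21 gives it.
Ppbp, chr5:90768268-90768517, plus strand: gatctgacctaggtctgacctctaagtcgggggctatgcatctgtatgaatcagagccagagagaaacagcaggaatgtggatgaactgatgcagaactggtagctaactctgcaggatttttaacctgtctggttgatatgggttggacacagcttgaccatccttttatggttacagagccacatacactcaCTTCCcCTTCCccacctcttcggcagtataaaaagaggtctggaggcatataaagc
Pf4, chr5:90772185-90772434, plus strand: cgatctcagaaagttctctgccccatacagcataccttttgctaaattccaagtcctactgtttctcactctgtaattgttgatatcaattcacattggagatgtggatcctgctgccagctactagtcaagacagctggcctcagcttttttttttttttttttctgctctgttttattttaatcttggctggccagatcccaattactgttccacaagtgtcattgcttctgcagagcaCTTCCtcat
Itga2b, chr11:102469884-102470133, minus strand: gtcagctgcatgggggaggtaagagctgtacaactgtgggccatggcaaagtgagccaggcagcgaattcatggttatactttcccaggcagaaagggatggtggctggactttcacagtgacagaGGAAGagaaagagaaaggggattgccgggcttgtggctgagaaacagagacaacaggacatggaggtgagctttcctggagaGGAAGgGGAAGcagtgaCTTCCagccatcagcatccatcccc
Gp9, chr6:87777820-87778069, plus strand: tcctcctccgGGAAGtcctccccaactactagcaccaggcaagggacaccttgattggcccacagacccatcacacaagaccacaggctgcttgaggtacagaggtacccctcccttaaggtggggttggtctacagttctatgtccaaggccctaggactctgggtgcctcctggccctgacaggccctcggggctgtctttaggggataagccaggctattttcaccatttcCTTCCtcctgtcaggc
All 4 windows, and that of Alas2, held the ETS core, as did 64.1% of the 32851 windows of the same length in the RefSeq table. A GATA word (AGATAA or AGATAG, or the same with T as the first letter, both strands) was in 0 of the 4, in that of Alas2 and in 26.5% of all windows. The CACCC word CCNCNCCC was in 2 of the 4 (Itga2b and Gp9), in that of Alas2 and in 45.9% of all, and the NFE2 core TGAGTCA was in 0 of the 5 and 4.46% of all. A match describes letters in the window and says nothing about binding.

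Ppbp encodes pro-platelet basic protein (CXCL7), a CXC chemokine stored in platelet alpha granules. Its normalized count was 63.3 in dopamine A and 58.3 in dopamine B, against 482 in PBS A and 409 in PBS B. Both dopamine libraries were far below both PBS libraries. The mean was 7.34-fold lower with dopamine, a log2 fold change of -2.85 (SE 0.14, 95% interval -3.14 to -2.56, adjusted p = 1.92e-20). Ordered from the most lowered, it stood at place 18 of the 26207 genes.

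Pf4, which encodes platelet factor 4 (CXCL4), another alpha granule chemokine, was the most abundant member. It had 199 and 189 normalized counts in dopamine A and B, against 550.4 and 524 in PBS A and B. The libraries of each group lay close together and the groups stood apart. The mean was 2.77-fold lower with dopamine, a log2 fold change of -1.46 (SE 0.11, 95% interval -1.69 to -1.23, adjusted p = 3.76e-14). Ppbp and Pf4 are neighbours on the plus strand of chromosome 5, Ppbp from 90768518 to 90770063 and Pf4 from 90772435 to 90773383, with 2.37 kb between them (GENCODE M21, mm10).

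Although they are neighbours in the genome, Ppbp and Pf4 fell by unequal amounts. Ppbp was 0.318 and 0.308 of Pf4 in dopamine A and B, against 0.877 and 0.781 of it in PBS A and B. The 2 groups did not overlap, and the 95% intervals of the log2 fold changes of these genes did not overlap either. An exact permutation test of this ratio gave a 2-sided p of 0.333, the smallest that 2 libraries against 2 allow.

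Itga2b encodes integrin alpha IIb (CD41), which pairs with the beta 3 chain to form the platelet fibrinogen receptor. It had 164 and 123 normalized counts in dopamine A and B, against 413 and 337 in PBS A and B. Both dopamine libraries were below both PBS libraries. The mean was 2.61-fold lower with dopamine (log2 fold change -1.38, SE 0.14, 95% interval -1.66 to -1.11, adjusted p = 5.29e-11). The gene lies on chromosome 11 from 102453297 to 102470122 on the minus strand.

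The ratio of Itga2b to Pf4 did not separate the groups: it was 0.826 and 0.651 in dopamine A and B, against 0.750 and 0.643 in PBS A and B. Its partner Itgb3, encoding integrin beta 3, fell too, with 536 and 630.2 normalized counts in dopamine A and B, against 1223 and 1257 in PBS A and B (log2 fold change -1.09, adjusted p = 2.67e-13). Per kilobase of exon the level of Itgb3 was above that of Itga2b in both groups, 98.8 and 26.4 normalized counts per kilobase with dopamine, and 210.1 and 68.7 with PBS.

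Gp9 encodes glycoprotein IX, a chain of the platelet receptor for von Willebrand factor. Its values were 6.94 and 13.6 in dopamine A and B, against 47.6 and 36.8 in PBS A and B. They rest on 9 and 14 reads in dopamine A and B, against 28 and 48 in PBS A and B. The groups did not overlap, and the fold change was -1.99 on the log2 scale (SE 0.35, 95% interval -2.71 to -1.28, adjusted p = 2.35e-05). Gp9 lies on chromosome 6 from 87778072 to 87779768.

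The other chains of that receptor were on the list of further platelet genes. Gp5, encoding glycoprotein V, had 22.4 and 26.2 normalized counts in dopamine A and B, against 67.9 and 75.1 in PBS A and B (log2 fold change -1.52, adjusted p = 5.15e-06). Gp1ba, encoding the chain that binds von Willebrand factor, averaged 20.8 ± 3.32 with dopamine and 41.9 ± 10.5 with PBS (SD, n = 2 each; log2 fold change -0.96, adjusted p = 0.0147). The Gp1ba call did not hold without PBS A (adjusted p = 0.241), without dopamine B (0.147) or in DESeq2 (0.15). Gp1bb, the chain linked to it, had 2 reads over both dopamine libraries and 26 over both PBS libraries, a rate ratio of 0.0626 of dopamine over PBS (95% counting interval 0.00720 to 0.250).

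**Figure D1:**
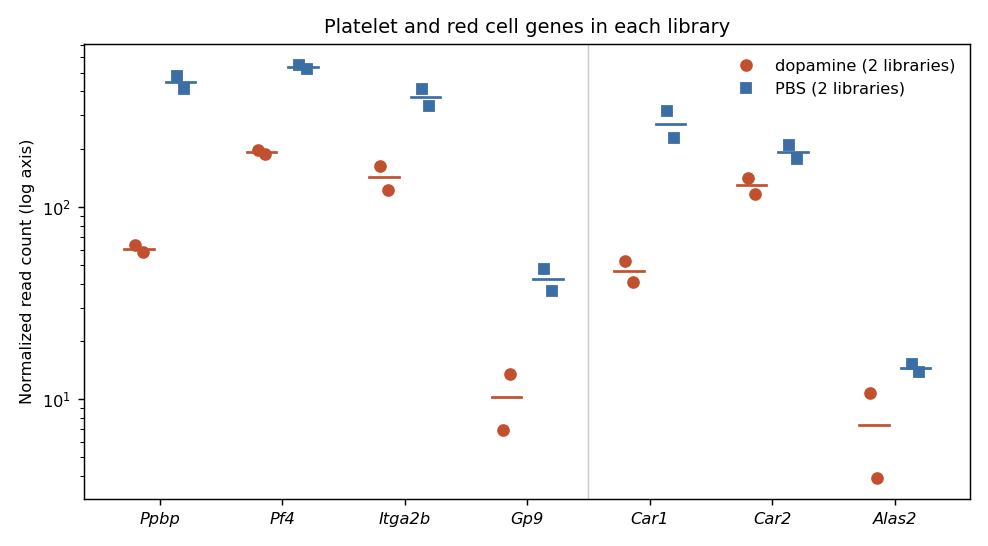
Normalized read count (log axis) of the 7 members in each library, with dopamine libraries as circles and PBS libraries as squares, and a line at each mean of 2. Both circles sit below both squares for every gene, with the widest gap in Ppbp (60.8 against 446 on average) and the narrowest in Car2 (129.7 against 194).

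Car1 encodes carbonic anhydrase 1, a cytosolic enzyme abundant in red cells that converts carbon dioxide and water to bicarbonate. It had 52.5 and 40.8 normalized counts in dopamine A and B, against 314 and 229 in PBS A and B. The groups stood far apart although the PBS libraries differed from each other. The mean was 5.83-fold lower with dopamine, a log2 fold change of -2.51 (SE 0.17, 95% interval -2.86 to -2.16, adjusted p = 1.06e-15).

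Car2 encodes carbonic anhydrase 2, the faster and more widely made enzyme. It had 142 and 117 normalized counts in dopamine A and B, against 211 and 178 in PBS A and B. The groups did not overlap but came close. The mean was 1.5-fold lower with dopamine, a log2 fold change of -0.58 (SE 0.15, 95% interval -0.88 to -0.28, adjusted p = 0.00293). The call rests on single libraries: the adjusted p was 0.119 without PBS A and 0.108 without dopamine B, and 0.0540 in DESeq2.

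Car1 and Car2 lie 77.9 kb apart on chromosome 3, from 14766216 to 14808368 and from 14886273 to 14900770. Car1 was 0.370 and 0.347 of Car2 in dopamine A and B, against 1.49 and 1.29 of it in PBS A and B. Thus Car1 exceeded Car2 in both PBS libraries and was below it in both dopamine libraries. The intervals of the log2 fold changes of these genes did not overlap, and the exact permutation p of the ratio was 0.333, the smallest possible. Ppbp and Car1, from different chromosomes and programs, kept closer to each other. Their ratio was 1.21 and 1.43 in dopamine A and B, against 1.54 and 1.79 in PBS A and B. These values did not overlap either, and the exact permutation p was again 0.333.

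Alas2 encodes the erythroid form of 5-aminolevulinate synthase, the first enzyme of heme synthesis. It had 10.8 and 3.88 normalized counts in dopamine A and B, against 15.3 and 13.8 in PBS A and B. These are 14 and 4 reads in dopamine A and B, against 9 and 18 in PBS A and B. The values did not overlap, but the change did not pass (log2 fold change -1.03, 95% interval -2.02 to -0.04, adjusted p = 0.134). Dopamine B carries much of it, since the log2 fold change was -0.40 without that library and -1.67 without dopamine A. The gene, on chromosome X from 150547375 to 150570638, shares 311 exon bases with Apex2 on the other strand, and the strand setting of the counting is not given in the sources used here.

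**Figure D2:**
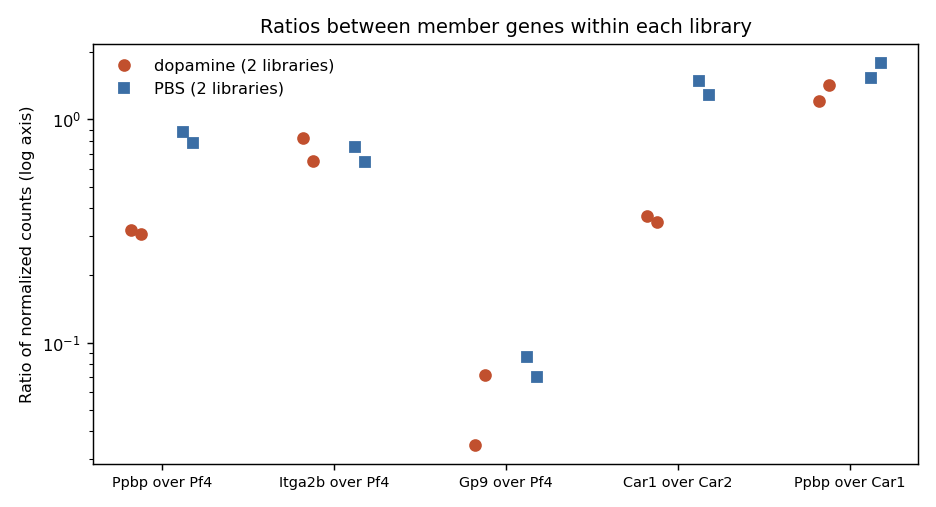
Ratio of normalized counts of one member to another within each library (log axis), dopamine libraries as circles and PBS libraries as squares. Ppbp over Pf4 and Car1 over Car2 are lower in both dopamine libraries (0.308 to 0.370) than in both PBS libraries (0.781 to 1.49), while Itga2b over Pf4 overlaps between the groups.

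The ratios within libraries above used normalized counts without regard to gene length, while the order of levels was taken per kilobase of exon. With dopamine the order was Pf4 (269 normalized counts per kilobase), Ppbp (56.1), Car2 (53.6), Car1 (37.4), Itga2b (26.4), Gp9 (11.7) and Alas2 (3.06). Ppbp and Car2 overlapped between libraries there, at 53.8 to 58.4 and 48.5 to 58.6, and the other neighbours in the order did not. With PBS the order was Pf4 (745), Ppbp (412), Car1 (218), Car2 (80.2), Itga2b (68.7), Gp9 (47.9) and Alas2 (6.05). There Car2 and Itga2b overlapped, at 73.4 to 87.0 and 61.8 to 75.7, and the others did not. Pf4 led and Alas2 came last in both groups, and Car1 changed its place with Car2.

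In the authors' deposited table the log2 fold changes of dopamine against PBS were -2.86 for Ppbp, -2.52 for Car1, -2.05 for Gp9, -1.46 for Pf4, -1.37 for Itga2b, -0.57 for Car2 and -0.95 for Alas2. The authors' deposited table gave an adjusted p of 0.00334 for Gp9 and 0.0540 for Car2, and NA for Alas2.

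Platelet genes beyond the members were widely lower. Of 32 listed genes, all of them measured, 24 fell and 0 rose, with a median log2 fold change of -1.39. Among the 20 with a mean of at least 20 normalized counts, 16 fell, against 9.16% of the 11611 genes of that abundance called lower and 31.4% called higher. The median of the 20 was -1.33, against 0.16 for all genes of that abundance. The count that fell was 16 without PBS A, 18 without PBS B and 16 in DESeq2.

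Thbs1, encoding the granule protein thrombospondin 1, averaged 108 ± 8.33 with dopamine and 347 ± 28.7 with PBS (SD, n = 2 each; log2 fold change -1.68, adjusted p = 1.59e-13). Mmrn1, encoding multimerin 1, a carrier of factor V in platelet granules, averaged 46.5 ± 1.46 with dopamine and 164 ± 1.17 with PBS (-1.79, adjusted p = 7.86e-11). Rgs18, a regulator of G protein signalling in platelets, averaged 44.1 ± 8.97 with dopamine and 185 ± 28.9 with PBS (-2.05, adjusted p = 4.90e-12). In each of these genes the groups did not overlap.

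Treml1, encoding a receptor of alpha granule membranes, had 3 reads over both dopamine libraries and 41 over both PBS libraries, a rate ratio of 0.0596 of dopamine over PBS (95% counting interval 0.0118 to 0.187). Tubb1, the platelet beta 1 tubulin, fell by 1.66 on the log2 scale (adjusted p = 0.00120, and 0.113 without PBS A).

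Some listed genes did not pass. Cd9, a tetraspanin that T cells also carry, averaged 382 ± 21.4 with dopamine and 353 ± 10.3 with PBS (log2 fold change 0.11, 95% interval -0.11 to 0.33). F2rl2, encoding the receptor PAR3, averaged 712 ± 153 with dopamine and 831 ± 152 with PBS (-0.23, adjusted p = 0.134). It passed as lower after rescaling on abundant genes (-0.42), in edgeR with TMM (-0.36), in edgeR without a filter (-0.28) and without dopamine B (-0.45). P2ry12, the platelet ADP receptor, had 9.26 and 12.6 normalized counts in dopamine A and B, against 1.70 and 10.7 in PBS A and B (1.07, adjusted p = 0.201), and it was called higher without PBS B (2.13, adjusted p = 0.0373).

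**Figure D3:**
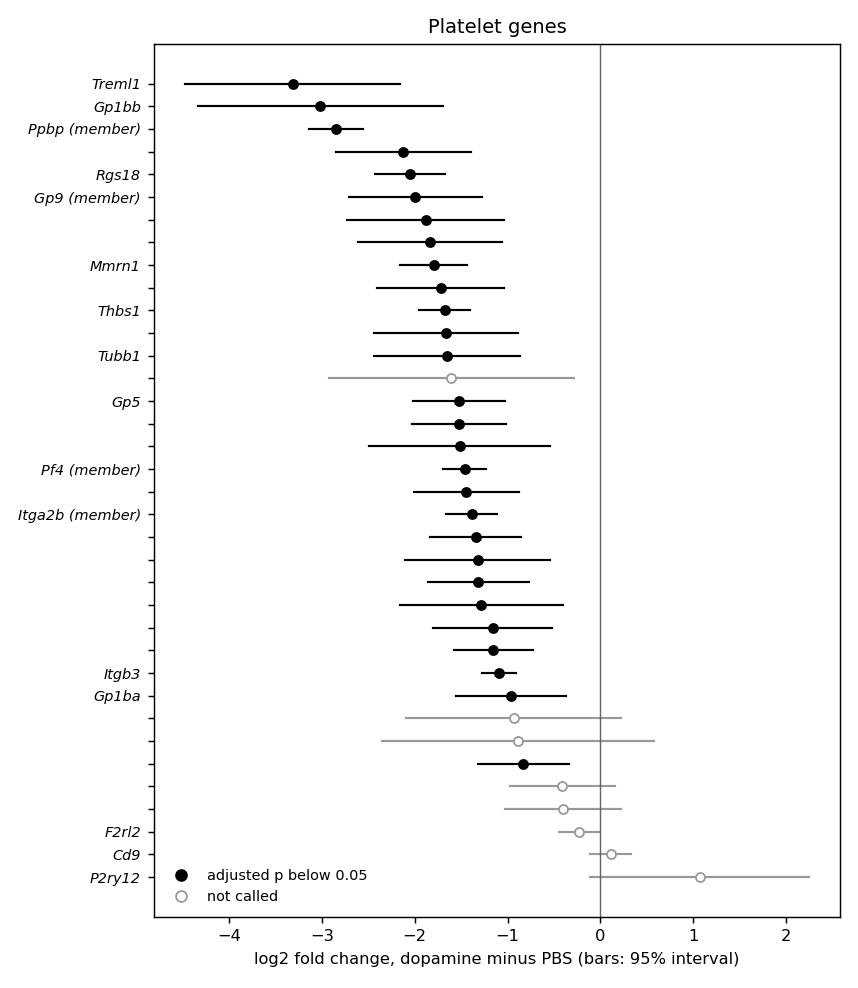
Log2 fold change of dopamine minus PBS for the 4 platelet members and 32 further platelet genes, with 95% intervals from limma (4 libraries). Genes named in the text are labelled. Filled points passed an adjusted p of 0.05, and all of them lie left of 0, from -0.83 to -3.32.

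Red cell genes beyond the members were less uniform. Of 36 listed genes 30 were measured, and 8 fell and 3 rose, against 7.00% and 14.3% of all genes. The median log2 fold change was -0.70. Low values weigh on that median: 17 of the 30 had a mean below 20, and genes of that abundance were lower in general (median -0.52 over 14596 genes). Among the 13 with a mean of at least 20, 4 fell and 3 rose, against 9.16% and 31.4% of genes of that abundance. The median of the 13 was -0.19. The count that fell was 2 without PBS A, 4 without dopamine B, 2 in DESeq2 and 14 after rescaling on abundant genes, and the count that rose was 0 without PBS A and 0 without dopamine B.

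Slc4a1, encoding the anion exchanger band 3, averaged 11.1 ± 6.10 with dopamine and 20.7 ± 4.36 with PBS and did not pass (-0.92, adjusted p = 0.11), though it passed without dopamine A (-1.46, adjusted p = 0.044). Aqp1, a water channel of red cells, averaged 17.2 ± 0.358 with dopamine and 39.1 ± 0.00299 with PBS (-1.14, adjusted p = 0.00463, but 0.0543 without PBS A and 0.0818 in DESeq2).

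Ermap, a red cell membrane protein gene, had a log2 fold change of -2.25 (adjusted p = 0.00636), with 0.190 without PBS A and 0.0882 without dopamine B. Bnip3l, which drives removal of mitochondria from maturing red cells and is made in many cells, averaged 1157 ± 38.8 with dopamine and 1660 ± 43.4 with PBS (-0.52, adjusted p = 8.94e-07). Slc25a37, the mitochondrial iron importer mitoferrin 1, went the other way, with 220 ± 35.0 with dopamine and 144 ± 18.0 with PBS (0.61, adjusted p = 0.00130, and 0.0799 without PBS A and 0.123 without dopamine B). Hba-x, an embryonic alpha-like globin gene and the single globin on these lists that was measured, had 1.54 and 3.88 normalized counts in dopamine A and B, against 5.10 and 8.43 in PBS A and B (adjusted p = 0.258).

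Heme synthesis genes other than Alas2 were not called lower. Of 9 genes, 8 enzymes and the mitochondrial transporter Slc25a38, 4 enzymes rose and 0 fell, and 3 rose after rescaling on abundant genes. Of genes of their abundance 31.4% were called higher and 9.16% lower, so these 9 do not stand apart from the general shift. Alas1, the form of the first enzyme made in all tissues, averaged 566 ± 40.5 with dopamine and 442 ± 4.82 with PBS (log2 fold change 0.35, adjusted p = 0.00765). That call ended after rescaling on abundant genes (0.16, adjusted p = 0.230), without PBS A (adjusted p = 0.0593), without PBS B (0.0572) and without dopamine B (0.183). Cpox averaged 189 ± 9.41 with dopamine and 111 ± 1.81 with PBS (0.77, adjusted p = 8.50e-05), and Alad rose too (0.56, adjusted p = 2.39e-04). Both enzymes act on the way to protoporphyrin, and both calls held in every alternative.

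**Figure D4:**
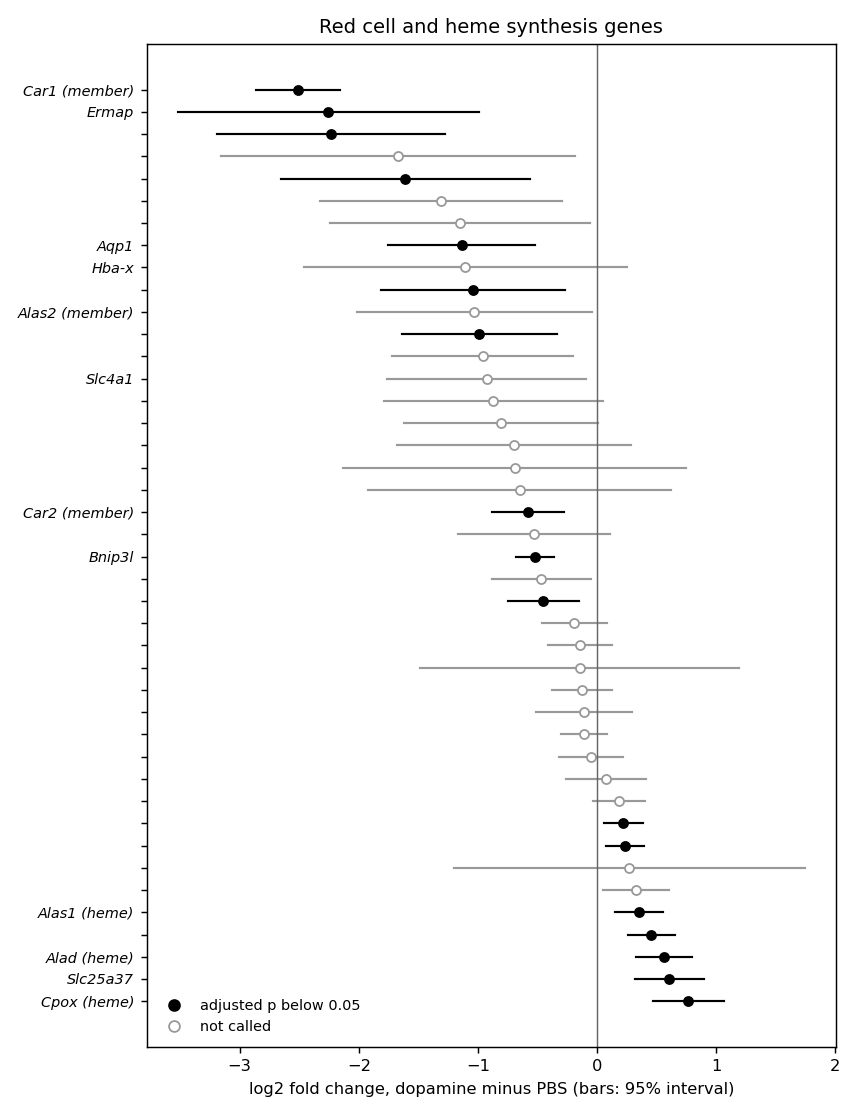
Log2 fold change of dopamine minus PBS for the 3 red cell members, 30 further red cell genes and 9 heme synthesis genes, with 95% intervals from limma (4 libraries). Genes named in the text are labelled, apart from Slc25a38. Car1 (-2.51) and Ermap (-2.25) lie farthest left, and Cpox (0.77) and Slc25a37 (0.61) farthest right.

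Transcription factors of megakaryocyte and erythroid cells fell in part. Of 14 genes, 7 fell and 1 rose, against 7.00% and 14.3% of all genes. Among the 10 with a mean of at least 20, 5 fell and 1 rose, against 9.16% and 31.4% of genes of that abundance. Gata1, the factor common to both lineages, had 63.3 and 65.1 normalized counts in dopamine A and B, against 139 and 138 in PBS A and B (log2 fold change -1.10, SE 0.17, adjusted p = 3.11e-06). The libraries of each group nearly coincided. Nfe2, a factor of platelet release and globin control, averaged 50.2 ± 0.986 with dopamine and 125 ± 0.579 with PBS (-1.30, adjusted p = 4.37e-07).

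Tal1 (-1.59) and Lmo2 (-1.50), which form a complex with GATA1, also fell, as did Gata2 (-1.54, adjusted p = 0.00142), which did not pass once PBS B was left out (0.072). Klf1, the erythroid factor that drives beta globin, averaged 5.03 ± 1.62 with dopamine and 18.9 ± 9.35 with PBS (-1.66, adjusted p = 0.0110), and its adjusted p was 0.283 without PBS A and 0.0994 without dopamine B. Fli1, a factor of megakaryocytes that T cells also make, averaged 1658 ± 83.1 with dopamine and 1439 ± 26.8 with PBS. It passed as higher at 0.20 (adjusted p = 0.0492), a call lost in 9 of 12 alternatives.

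Most other genes of the Car and CXC families were of low abundance. Of 11 other carbonic anhydrase genes, 8 of them with a mean below 20, 0 fell and 1 rose, against 7.00% and 14.3% of all genes. The 1 that rose was Car12 (log2 fold change 0.59, adjusted p = 0.0139). That call ended in DESeq2 (0.139), after rescaling (0.105), without PBS A (0.0964), without dopamine A (0.0875) and without dopamine B (0.114). Car13, in the same cluster as Car1, averaged 32.2 ± 5.22 with dopamine and 30.6 ± 0.0494 with PBS (0.06, 95% interval -0.51 to 0.63).

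Of 15 other CXC chemokines and receptors, 3 fell and 0 rose, against 7.00% and 14.3% of all genes. Of the 15, 8 had a mean below 20. The 3 that fell were Cxcr4 (-0.96), Cxcl9 (-0.83) and Cxcl11 (-2.31), and only Cxcr4 fell in DESeq2. Cxcr2, the receptor of CXCL7, averaged 5.13 ± 0.385 with dopamine and 6.46 ± 0.471 with PBS. Cxcr3, which is known to bind platelet factor 4, averaged 81.7 ± 0.148 with dopamine and 69.6 ± 14.3 with PBS (0.24, adjusted p = 0.415). Within 200 kb of Ppbp, 11 genes had values, and of these Pf4 was called lower and 0 were called higher. Apart from Pf4 and Mthfd2l these genes had a mean below 20, so the lack of a call says little about them. Around Itga2b 0 of 13 neighbours were called lower and 2 higher, and around Gp9 0 of 15 were called lower and 2 higher. Of all genes 7.00% were called lower and 14.3% higher, so these counts do not set the neighbours apart. Several of these neighbours had a mean below 20 too.

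Most basophil, mast cell and progenitor markers fell with the platelet genes, fewer monocyte and neutrophil markers did, and most B cell markers rose. The part of such cells in the result was not tested. Of 11 basophil and mast cell markers measured, 9 fell and 0 rose (median log2 fold change -1.42), against 7.00% and 14.3% of all genes. Their summed level was 920.5 and 1015 normalized counts in the dopamine libraries, against 2482 and 2862 in the PBS libraries, and none was at 0. The basophil protease genes Mcpt8 and Prss34 fell by 2.15 and 1.76, Cpa3, a mast cell and basophil carboxypeptidase gene, fell by 1.72, and Ms4a2, a chain of the IgE receptor, fell by 1.42. Hdc, the histamine-forming enzyme of these cells, averaged 204 ± 12.9 with dopamine and 205 ± 24.6 with PBS, a log2 fold change of -0.0075 (adjusted p = 0.975). Kit, the stem cell factor receptor of mast cells and progenitors, fell by 0.99 (adjusted p = 0.0312), which missed the threshold without PBS A (0.275), PBS B (0.0725) or dopamine B (0.393), in DESeq2 (0.234) and in edgeR without a filter (0.0512).

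Pf4 was 1.77 and 1.44 times Mcpt8 in dopamine A and B, against 0.942 and 1.03 times in PBS A and B. Ppbp was 0.562 and 0.444 of Mcpt8 in dopamine A and B, against 0.826 and 0.808 in PBS A and B. Relative to Mcpt8, then, Pf4 was higher and Ppbp lower with dopamine, each with an exact permutation p of 0.333.

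Of 15 blood progenitor markers, 10 fell and 0 rose, against 7.00% and 14.3% of all genes. Among those that fell were Mpo at -2.09, Angpt1 at -1.86, Ctsg at -1.54 and Myb at -0.75. The sum of the 15 was 1306 and 1476 in the dopamine libraries, against 2697 and 2998 in the PBS libraries, and none was at 0. Of 10 monocyte and macrophage markers measured, 3 fell and 0 rose, among them Lyz2 (-1.49) and Adgre1 (-1.62), and 1 fell without PBS B and in DESeq2. Of all genes 7.00% were called lower and 14.3% higher, and DESeq2 called lower 5.53% of those it tested. The sum of the 10 markers was 86.4 and 91.0 in the dopamine libraries, against 178 and 201.5 in the PBS libraries. Of these 10, 8 had a mean below 20. Fcgr1 was at 0 in dopamine A and C1qb in dopamine B.

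Of 8 neutrophil markers measured, 2 fell and 0 rose, Ltf (-2.58) and S100a9 (-2.31), and 0 fell without PBS A, without dopamine B and in DESeq2. Their sum was 11.7 and 19.3 in the dopamine libraries, against 34.5 and 67.9 in the PBS libraries. All 8 had a mean below 20, and the 14596 genes of that abundance had a median log2 fold change of -0.52. Of all genes, 7.00% were called lower. In dopamine B, S100a8, S100a9, Ltf, Ngp and Ly6g were at 0, and Ly6g was at 0 in PBS B. B cell markers went the other way, with 4 of 7 higher and 0 lower, against 14.3% and 7.00% of all genes. Among those higher were Ms4a1 at 1.93, Cd79b at 1.29 and Cd22 at 1.28, and Cd22 had an adjusted p of 0.0649 in DESeq2. The sum of the 7 was 397 and 403 in the dopamine libraries, against 152 and 182 in the PBS libraries. Of 7 helper T cell markers Trac fell (-0.27, adjusted p 0.0724 without PBS B), and Cd3d, Cd3g and Trbc2 rose by at most 0.25 on the log2 scale. Of these 3, 0 were called higher after rescaling, in edgeR with TMM or without PBS A. Cd3e (0.24) and Gata3 (-0.08), the Th2 master factor, did not pass. All 7 had a mean of at least 20, and of genes of that abundance 31.4% were called higher and 9.16% lower.

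**Figure D5:**
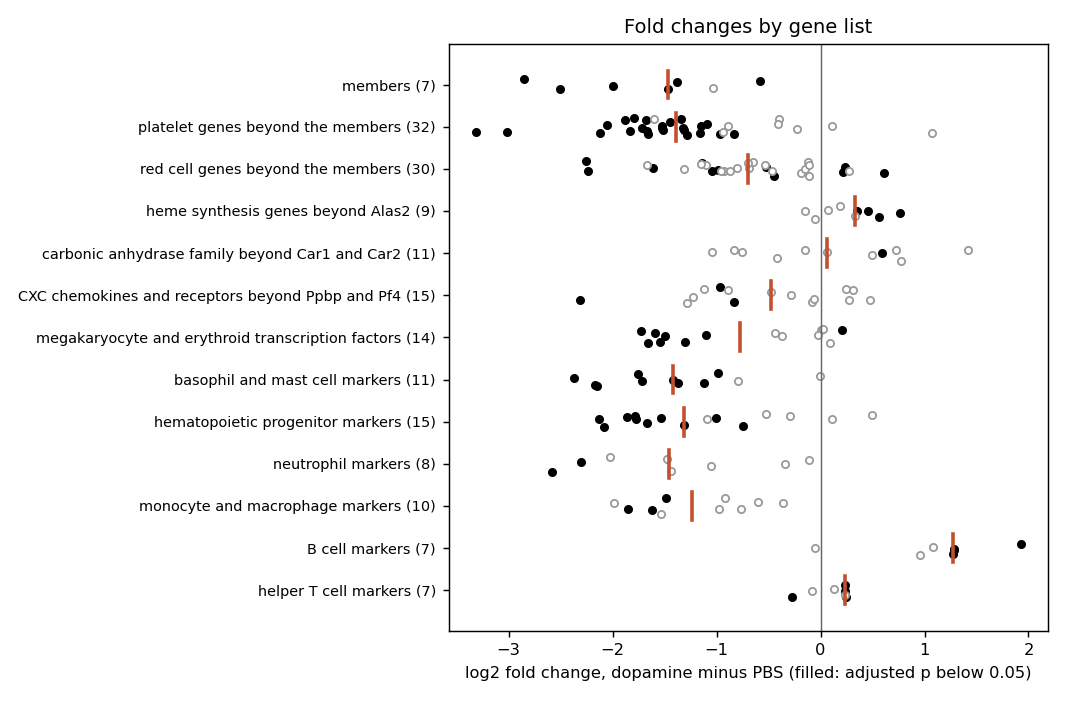
Log2 fold change of dopamine minus PBS for the 7 members and the genes of 12 lists, 1 point per gene with the number measured in parentheses, filled where the adjusted p was below 0.05, and a line at each median. The medians of the platelet, basophil and progenitor lists lie at -1.31 to -1.42, beside -1.46 for the members. The neutrophil median is also -1.46, but all 8 of its genes had a mean below 20 (median -0.52 over all such genes). The medians of the heme, carbonic anhydrase, B cell and helper T cell lists lie right of 0.

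The genes most like the members were sought over the 4 libraries, with the mean centred log2 profile of the 6 members with a mean of at least 20 as the pattern. Predicted gene models, Rik clones and antigen receptor segments were left out. Among the 10586 other genes of that abundance the closest was Rab44, a large Rab GTPase gene, at a Euclidean distance of 0.080 log2 units. Next were Prss34, a basophil protease gene (0.153), Hgf, encoding hepatocyte growth factor (0.163), Pde10a, a cyclic nucleotide phosphodiesterase gene (0.166), and Itgam, encoding the integrin CD11b of myeloid cells (0.182). The members themselves lay 0.364 (Pf4) to 1.23 (Car2) from that mean, so these genes are nearer to the mean than any member. With 4 libraries in 2 groups, likeness reflects little beyond a fold change of about the same size, and Prss34 fell by 1.76 on the log2 scale.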

How the data were processed

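Per the labels' protocols, RNA came from an RNeasy kit and libraries from a TruSeq Stranded mRNA kit. Per the submitters' processing notes, the tools were FastQC 0.11.2, TopHat2 2.0.13, HTSeq 0.6, DESeq2 and R 3.6.2, on mm10. Per the file headers, the deposited table holds the authors' log2 fold change with its standard error, a Wald score, p-values raw and adjusted, and 4 library columns. These columns are a signal, read counts that the authors divided by 1 size factor per library, and 100% of values were whole reads within 0.01 once the worth of a read was known. Column names give the group but other replicate numbers than the titles, so columns were matched to groups only. There were 0 columns of other samples.

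The main test was limma 3.58.1 (R 4.3.3) on log2(value + 1) with a variance trend and every gene kept. It was 2-sided, with Benjamini-Hochberg adjustment over 26207 genes at 0.05. Fold changes on that scale understate those of low genes. Limma pooled variance with 42.4 prior degrees of freedom, so p-values rest largely on genes of like abundance. Recovered reads were tested with edgeR 4.0.16 and DESeq2 1.42.0 as alternatives, and all 3 tests were tested on simulated data. The outcome of that simulation is not reported here, and no result rests on it. Intervals on read ratios cover counting error only. Libraries of a group differed beyond sampling noise (chi-square per degree of freedom 3.98 for dopamine and 2.64 for PBS). Exon lengths and positions are from GENCODE M21.

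Members and lists were chosen with earlier results of these data known. Named are all members, up to 4 genes of smallest p per list, a fixed set of lineage genes and the 5 most alike. Gp5, Treml1, Tubb1, Cd9, F2rl2, P2ry12, Ermap, Hba-x, Slc25a38, Hdc, Fli1, Car13, Cxcr2 and Cxcr3 were named after their values were seen. A few genes picked by this rule go unreported here, while counts over lists include them.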

Additional observations from a re-analysis of the deposited data

How the results depend on the processing

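Fold changes and counts of calls were recomputed under 12 alternatives, fewer (down to 8) for genes that a filter or DESeq2 left out. Ratios, levels per kilobase and profile distances were not recomputed. The members called lower numbered 5 to 6 in the 12, and 5 to 6 when a library was left out. Of 82 recomputed member results 79 kept their direction and side of the threshold and 3 lost the call, all Car2 (-0.57 in DESeq2, -0.46 without PBS A, -0.44 without dopamine B), and 0 reversed. The ranges of the log2 fold change were -3.04 to -2.73 for Ppbp, -2.74 to -2.28 for Car1, -2.43 to -1.55 for Gp9, -1.66 to -1.43 for Pf4, -1.59 to -1.18 for Itga2b, -0.77 to -0.44 for Car2 and -1.67 to -0.40 for Alas2, which DESeq2 left without an adjusted p. Over all genes, 1160 were called lower with a mean of at least 20 (fewer genes tested), 719 with DESeq2, and 3178 lower and 1806 higher after rescaling; the cause was not tested for DESeq2. Leaving out a library gave 762 to 1389 lower and 2152 to 3201 higher. The number in the column name was tried as a replicate block. It gave 2372 lower and 4627 higher, and 6 members lower. Same-numbered libraries deviated together with a correlation of 0.214, but with 2 pairs of unstated origin the numbers were not taken to pair them. Of 1329 results of 118 other named or listed genes 1179 stayed the same, 119 lost a call, 31 gained one and 0 called ones reversed. These and the counts over lists were added after seeing the data. Depth limits genes of a few reads per library, such as Alas2, Gp1bb and Treml1.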
